A study of Mus musculus with 4 samples.

Results

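The transcripts described here are those of the mouse Zfp zinc finger genes, the large set of genes whose symbols are Zfp followed by a number. Of 374 such genes in the count table, with Zfp36 left out because it encodes a protein of another finger type, 182 were chosen by their raw counts, with a minimum of 20 in each of the 4 libraries, and taken as members, out of 52550 genes in the table and 13632 genes that passed the filter on low counts. The other 192 fell under 20 counts in at least 1 library, 144 of them in both an input and a RIP library, 24 only in RIP libraries and 24 only in inputs; 32 of the 192 had no count at all. Because the rule reads the counts of both groups, a Zfp transcript close to 0 in either group could not become a member. Just inside the limit, with a lowest count of 20 or 21, were Zfp3 (log2 fold change, RIP against input, -0.56), Zfp612 (0.12), Zfp941 (0.11), Zfp709 (0.07), Zfp790 (1.43) and Zfp882 (0.44). Just outside it, at 18 or 19, were Zfp383 (1.72), Zfp933 (-1.63), Zfp952 (1.30), Zfp143 (-1.66), Zfp202 (0.84), Zfp511 (-1.50) and Zfp707 (0.12).

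The study asked which transcripts the m6A reader YTHDF2 holds in the developing retina. Retinas of wild type C57BL/6 pups at P0 were dissociated with papain, and lysates went through RNA immunoprecipitation (RIP) with an anti-YTHDF2 antibody. The 4 libraries were 2 of input RNA and 2 of RIP eluate, each made from 100 ng of RNA with a stranded kit. The labels list no transgene and no treatment in either group, the paper's control IgG pulldown was not analysed here, and the sources do not say how many pups went into a replicate.

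Most Zfp genes encode C2H2 zinc finger proteins, in which each finger is a short loop that folds around a zinc ion held by a pair of cysteines and a pair of histidines, and rows of fingers read DNA. Many also carry a KRAB box, which recruits the scaffold protein TRIM28 and, through it, histone methyltransferases and heterochromatin proteins that silence retroelements and keep imprints. Others bind RNA, act in ubiquitin or SUMO pathways, or have roles in neural development. YTHDF2 binds transcripts that carry m6A and is known to promote their decay.

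All 182 members were found in GENCODE M21 (GRCm38); 181 were protein-coding, and Zfp783 was a transcribed pseudogene. A search of the encoded proteins found a KRAB box match in 68 members and no match in 113. Zfp783, with no protein to search, is counted with the latter, which gives 114 without a match. The finger pattern searched was a cysteine, 2 to 4 residues, a cysteine, 12 residues, a histidine, 3 to 5 residues and a histidine. The 181 coding members had a median of 9 such fingers, up to 36 in Zfp142, and 4 members (Zfp365, Zfp503, Zfp330 and Zfp839) had none that matched. The repeated unit is given for the 3 Zfp transcripts with the highest RIP-to-input ratio and for the depleted transcript with the most fingers, as the coding stretch of the finger closest to the usual form. The 84 bases run 5′ to 3′ from the GENCODE M21 transcripts (GRCm38), and capitals mark the codons of the zinc-holding cysteines and histidines.
Zfp46: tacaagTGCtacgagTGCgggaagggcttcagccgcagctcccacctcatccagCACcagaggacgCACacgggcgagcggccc
Zfp12: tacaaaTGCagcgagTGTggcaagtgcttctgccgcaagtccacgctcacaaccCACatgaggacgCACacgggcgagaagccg
Zfp689: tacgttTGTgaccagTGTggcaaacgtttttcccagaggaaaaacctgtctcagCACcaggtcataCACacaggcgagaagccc
Zfp945: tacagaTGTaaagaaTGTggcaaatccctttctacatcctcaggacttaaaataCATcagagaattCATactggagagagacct
They start at base 442 of the coding sequence of Zfp46, 1207 of Zfp12, 613 of Zfp689 and 1027 of Zfp945. Of the 84 bases, 62 were the same in Zfp12 as in Zfp46, 51 in Zfp689 and 43 in Zfp945. Such repeats can make reads ambiguous between genes. Cut into 50-base stretches, the annotated transcripts of 95 members shared none with another gene and those of 11 members shared at least 10%, most in Zfp617 (44.0%), Zfp414 (43.9%) and Zfp747 (36.9%); values of those 11 are uncertain. Another annotated gene overlapped 86 members.

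Total counts were 39499994 and 36236531 (inputs) and 19530226 and 24903212 (RIP), of which 8.29% to 11.2% fell on protein-coding genes of the nuclear genome. All 10 retina markers and all 7 retinal ganglion cell markers had at least 20 counts in both inputs. The lens markers Cryaa, Crybb1, Crygs and Mip had no count in either input, nor did Rpe65, Tyr and Mlana of the pigment epithelium. All 5 pigment epithelium markers still summed to 142 and 120 counts in inputs, with 1 marker at 20 or more in both. The 5 lens markers summed to 0 and 2, and the 5 blood markers to 33 and 26. For each 1000000 counts on nuclear coding genes, the 4 vessel markers summed to 312 and 342 before the pulldown and to 755 and 783 after it, and the 7 ganglion cell markers to 526 and 455 before and to 279 and 278 after. Whether fewer cells of a type or less RNA per cell lie behind a low input level cannot be told apart in such bulk samples. The part of the marker differences between input and RIP in the Zfp values was not tested.

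Zfp transcripts made up a larger part of the RIP libraries than of the inputs. Their counts were 32172 and 39652 in input replicates 1 and 2, which was 0.904% and 1.23% of the counts on nuclear coding genes. In RIP replicates 1 and 2 they were 36205 and 32502, or 1.66% and 1.57%. Both RIP shares lay above both input shares. In CPM (counts for each 1000000 of a library's depth, with TMM factors that set libraries to a common level from the bulk of genes), the 182 members summed to 1060 ± 135 (SD, n = 2) in inputs and 1392 ± 59.2 (SD, n = 2) in the RIP. The inputs stood further apart than the RIP libraries.

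Single members spread widely around this. The log2 fold change of RIP against input, fitted by edgeR's quasi-likelihood method over all 13632 genes, had a median of 0.25 over the members, with quartiles of -0.16 and 0.76. The median was -0.05 over all genes tested and 0.11 over the 9283 nuclear coding genes that met the same minimum of 20 counts. The members' median exceeded that of all genes tested by 0.31. The excess was 0.14 with a trend on transcript length and GC content taken out, 0.17 when every gene tested had to reach 20 counts in all libraries, 0.18 without input replicate 1 and 0.60 without input replicate 2. With that trend taken out the members' own median was -0.02. The log2 fold change was above 0 in 118 of the 182 members, 64.8%, against 48.1% of all genes tested. Among coding genes of the same count minimum, 55.1% were above 0. Both RIP libraries lay above both inputs in 77 members (42.3%), where the background over all genes tested was 29.6%, and below both in 19 (10.4%), with a background of 31.3%. Over coding genes of the same count minimum these backgrounds were 35.8% and 25.8%. In the remaining 86 members the groups overlapped.

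At an adjusted p below 0.05 (edgeR quasi-likelihood test, Benjamini-Hochberg over all genes tested), 8 members were enriched in the RIP and 4 were depleted. That is 4.4% and 2.2% of the members, against 3.48% and 9.78% of all genes tested and 4.52% and 7.95% of coding genes with the same count minimum. The enriched share was close to the background, and the depleted share was below it. At looser limits, a log2 fold change of at least 1 with an unadjusted edgeR p below 0.05, 24 members (13.2%) were enriched. At -1 or lower with such a p, 8 (4.4%) were depleted. The shares were 9.43% and 17.2% of all genes tested, and 11.6% and 13.4% of coding genes with the same count minimum. Enriched members were 66.7% of the 12 calls at the adjusted threshold. With scaling by library size alone they were 88.2%, from 15 enriched and 2 depleted (8.2% and 1.1% of members, with 6.2% and 7.32% of all genes tested), and that scaling raised the median of all genes by 0.33 on the log2 scale. With a trend on transcript length and GC content taken out they were 29.4%, from 5 enriched and 12 depleted (2.7% and 6.6% of members), below the 4.16% and 10.3% of all genes tested in both directions. The counts also turned on which library was left out. In those fits the lone library of a group was assumed to vary like those of the other group. Without input replicate 1 there were 45 enriched and 27 depleted members, without input replicate 2 there were 61 and 13, without RIP replicate 1 there were 0 and 0, and without RIP replicate 2 there were 1, Zfp46, and 0. The matching shares of all genes tested moved with them, from 0.0293% to 18.6% for enriched and from 0.646% to 20% for depleted genes. At the looser limits 29 members were enriched and 23 depleted without input replicate 1 (12.5% and 17.4% of all genes tested), and 49 and 11 without input replicate 2 (15.3% and 18.8%). There were 7 and 2 without RIP replicate 1 (4.57% and 10.8%), and 13 and 4 without RIP replicate 2 (4.76% and 10.9%).

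**Figure D1:**
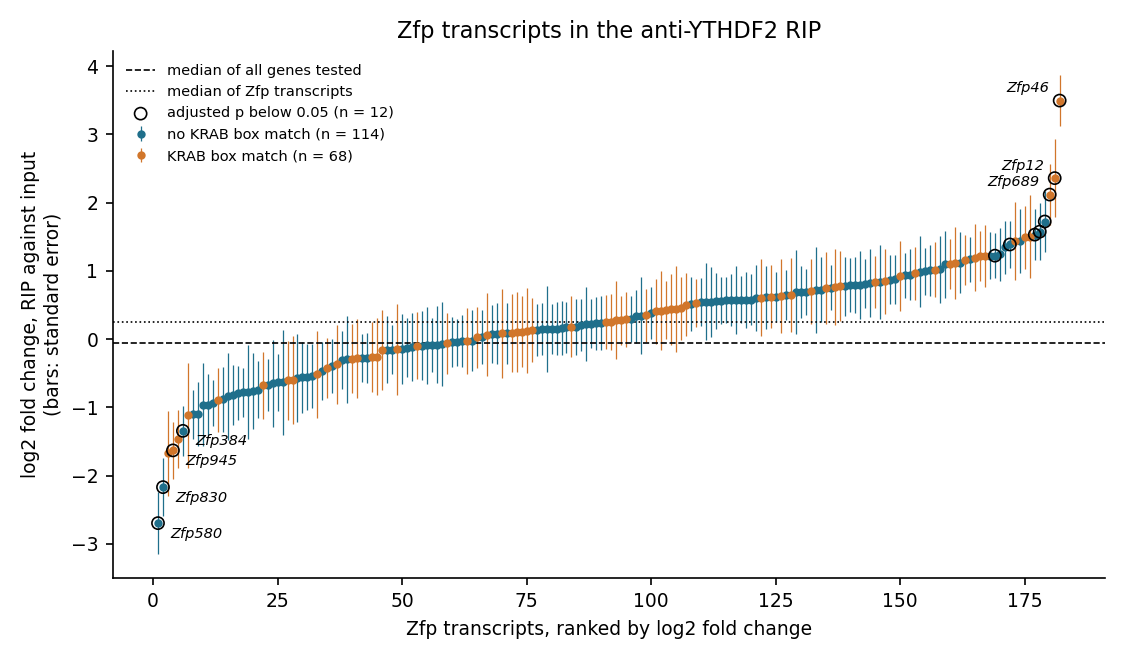
Log2 fold change of RIP against input for the 182 Zfp transcripts, ranked on the x axis, with the standard error as bars; colours give the KRAB box match, black rings the 12 transcripts with an adjusted p below 0.05, and lines the medians of Zfp transcripts (0.25) and of all genes tested (-0.05). Zfp46 stands alone at 3.50, and Zfp580 is lowest at -2.70.

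Zfp46 (ENSMUSG00000051351) had the highest log2 fold change of all members. The gene lies on chr4:136284683-136293942 of GRCm38, plus strand, with 5 annotated transcripts, the longest of 4639 bases with a longest exon of 3980 bases. It encodes a protein of 452 residues with a KRAB box near its start and 12 fingers. It had input counts of 46 and 52 and RIP counts of 453 and 356. That was 1.45 ± 0.10 CPM (SD, n = 2) in inputs against 16.4 ± 2.23 CPM (SD, n = 2) in the RIP, 11.3-fold higher. The fitted log2 fold change was 3.50 (SE 0.38). All 4 ratios of a RIP library to an input were high, the lowest at 3.23 on the log2 scale. It ranked 1 by log2 fold change among the 9283 coding genes of the same count minimum and 18 among all 13632 genes tested, where noncoding or lower-count genes stand above it. No 50-base stretch of it was shared with another gene, and no annotated gene overlapped it. Zfp46 was picked for this difference, so it is given with no test, although it is 1 of the 8 enriched members. Over the alternatives its log2 fold change stayed between 1.78, on log2(FPKM + 1), and 3.85, with scaling by library size alone; its length-scaled level was 0.21 and 0.26 FPKM in inputs and 4.08 and 2.51 FPKM in the RIP.

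The next highest members also carried a KRAB box. Zfp12 (chr5:143235163-143248834, plus strand, 15 fingers) had input counts of 40 and 149 and RIP counts of 309 and 391, a log2 fold change of 2.36 (SE 0.57; edgeR adjusted p = 0.0303). The inputs differed from each other more than the RIP libraries did, yet both stayed below them. Zfp689 (chr7:127442136-127449158, minus strand, 10 fingers) had input counts of 64 and 36 and RIP counts of 182 and 137, a log2 fold change of 2.12 (SE 0.45; edgeR adjusted p = 0.0185). A gene on the other strand, B130055M24Rik, overlaps Zfp689 and had 85 counts over all 4 libraries together. These were, with Zfp46, the 3 enriched members with a KRAB box. The edgeR adjusted p of Zfp12 rose to 0.0814 with the length and GC trend taken out, to 0.0570 with TMM factors from genes other than small, ribosomal and mitochondrial RNA and to 0.0784 when no filter was set. That of Zfp689 was 0.0130 with the trend taken out.

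The other 5 enriched members had no KRAB box match. Zfp775 had input counts of 57 and 35 and RIP counts of 102 and 120, a log2 fold change of 1.72 (SE 0.44; edgeR adjusted p = 0.0365). Zfp365, which encodes the DISC1-binding protein DBZ, a centrosome protein linked to neurite growth, had 43 and 51 against 121 and 84, a log2 fold change of 1.58 (SE 0.42; edgeR adjusted p = 0.0407). Zfp516, a cofactor in brown fat gene expression, had 335 and 207 against 611 and 536, a log2 fold change of 1.53 (SE 0.38; edgeR adjusted p = 0.0319). In all 3 transcripts both RIP libraries were above both inputs in CPM. Zfp41 and Zfp740 are not covered by the naming rule and were picked once their values were known. Zfp41 had input counts of 377 and 315 and RIP counts of 723 and 600 (log2 fold change 1.39, SE 0.34; edgeR adjusted p = 0.0317), and Zfp740 had 408 and 397 against 685 and 684 (1.22, SE 0.33; edgeR adjusted p = 0.0425). Zfp740, with nearly equal replicates, missed the threshold with the replicate number as a block (edgeR adjusted p = 0.0705). With the length and GC trend taken out none of these 5 passed, with edgeR adjusted p-values of 0.0516 for Zfp365, 0.0527 for Zfp775, 0.0585 for Zfp740, 0.169 for Zfp516 and 0.221 for Zfp41. On log2(FPKM + 0.1) the limma adjusted p was 0.0766 for Zfp365, 0.0627 for Zfp740 and 0.0504 for Zfp41, and with no filter on low counts the edgeR adjusted p was 0.0658 for Zfp365 and 0.0508 for Zfp740. On log2(FPKM + 1) Zfp365 was at 0.122.

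**Figure D2:**
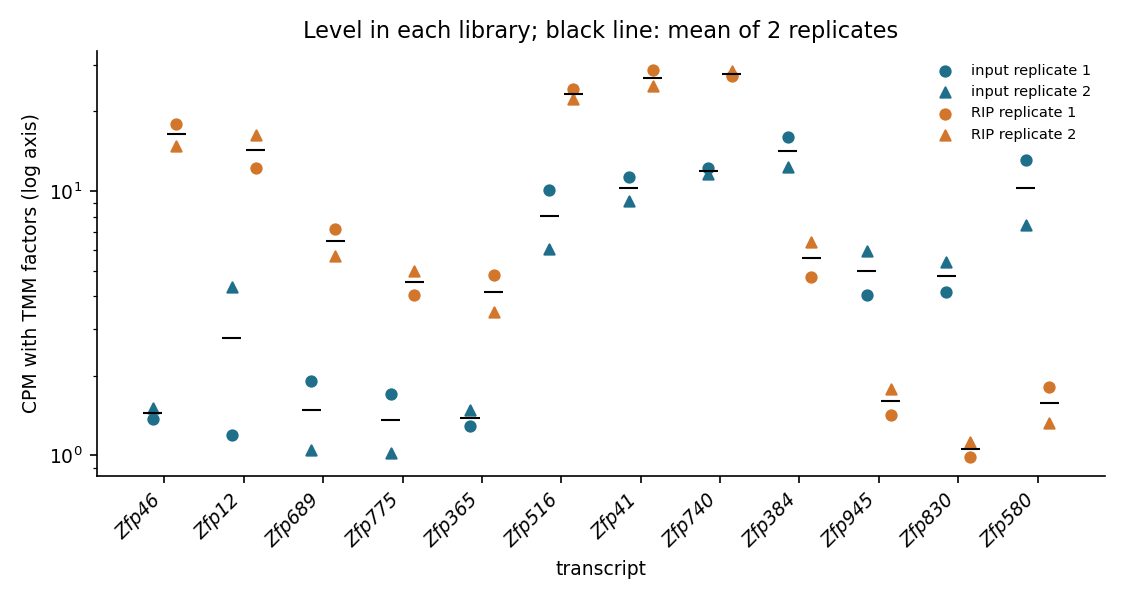
CPM with TMM factors, on a log axis, of the 12 Zfp transcripts with an adjusted p below 0.05 in each of the 4 libraries; circles are replicate 1, triangles replicate 2, blue inputs, orange RIP, and black lines the mean of 2. The 8 enriched transcripts on the left have both RIP points above both inputs, and the 4 depleted ones on the right have both below.

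Another 4 of the 10 members with the highest log2 fold change did not pass the adjusted threshold, and in each of them input replicate 1 was low. Zfp871 (15 fingers, KRAB box, a longest transcript of 10851 bases) had input counts of 95 and 445 and RIP counts of 530 and 574, a log2 fold change of 1.50 (SE 0.61; edgeR adjusted p = 0.139). Zfp704, with a longest transcript of 13834 bases, had 470 and 1298 against 1775 and 1691 (1.44, SE 0.47; edgeR adjusted p = 0.0821). Zfp317 had 56 and 114 against 208 and 140 (1.49, SE 0.46; edgeR adjusted p = 0.0658), and Zfp790 had 21 and 73 against 89 and 95 (1.43, SE 0.57; edgeR adjusted p = 0.134). In CPM both RIP libraries were above both inputs in all 4. With the replicate number as a block, each of the 4 passed the threshold (edgeR adjusted p = 0.00416 for Zfp871, 0.0222 for Zfp704, 0.0232 for Zfp317 and 0.0201 for Zfp790). With the length and GC trend taken out, Zfp871 (0.0214) and Zfp317 (0.0256) passed as well, and with DESeq2 their adjusted p-values were 0.0474 and 0.0321.

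The depleted members were of several kinds. Zfp580 (chr7:5051538-5053723, plus strand), whose longest transcript of 1096 bases was the shortest of all members and whose GC content of 65.0% was the highest, had input counts of 436 and 255 and RIP counts of 46 and 32, a log2 fold change of -2.70 (SE 0.45; edgeR adjusted p = 0.00717). Ccdc106, which overlaps Zfp580, had 119 counts over all 4 libraries together. Zfp830, a single-finger protein associated with the spliceosome, had 138 and 185 against 25 and 27 (-2.17, SE 0.42; edgeR adjusted p = 0.0135). Zfp945 (18 fingers, KRAB box), at 35.9% the member with the lowest GC content, had 135 and 203 against 36 and 43 (-1.63, SE 0.42; edgeR adjusted p = 0.0378). Zfp384, which encodes the nuclear matrix transcription factor NMP4, had 534 and 423 against 119 and 155 (-1.34, SE 0.36; edgeR adjusted p = 0.0443). In these 4 transcripts both RIP libraries lay below both inputs, and in counts the lower input exceeded the higher RIP value in each. Under 4 alternatives neither Zfp384 nor Zfp945 passed: library size alone (edgeR adjusted p = 0.133 and 0.0892), no filter on low counts (0.0846 and 0.0855), log2(FPKM + 0.1) (limma adjusted p = 0.148 and 0.178) and log2(FPKM + 1) (0.0595 and 0.313). Zfp945 also missed the threshold with TMM factors from genes other than small, ribosomal and mitochondrial RNA (0.0538). Zfp384 shared 13.1% of its 50-base stretches, most with Gm11405.

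The other 6 of the 10 lowest members did not pass the threshold. Zfp386 had input counts of 72 and 258 and RIP counts of 49 and 26 (-1.67, SE 0.62; edgeR adjusted p = 0.114) and Zfp81 had 31 and 235 against 39 and 49 (-1.12, SE 0.77; edgeR adjusted p = 0.372). The 2 inputs of Zfp81 lay on either side of the RIP libraries in CPM. Without input replicate 2 its log2 fold change was 0.94. Zfp1, Zfp523, Zfp692 and Zfp326 had log2 fold changes of -1.47, -1.10, -1.10 and -0.96. With the length and GC trend taken out, Zfp523 (edgeR adjusted p = 0.00697) and Zfp386 (0.0427) passed as depleted. Zfp1 passed with the replicate number as a block (edgeR adjusted p = 0.0382), and Zfp326, part of a complex that couples transcription elongation to splicing, was at 0.21 without input replicate 2.

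The inputs differed over Zfp transcripts more than the RIP libraries did. Across the 182 members, Pearson's r of log2 CPM was 0.70 between inputs and 0.95 between RIP libraries, with genes as points that share each library. The log2 ratio of replicate 2 to replicate 1 had an SD of 0.99 between inputs and 0.44 between RIP libraries. Over all genes tested these SDs were 0.98 and 0.70, so that the members' spread between inputs was close to that of all genes. Input replicate 2 was at least 1 log2 unit above input replicate 1 in 57 members (31.3%), with a background of 16.8%, while RIP replicate 2 stood as far above RIP replicate 1 in 1 member (0.55%), with a background of 5.38%. Over coding genes of the same count minimum, 14.9% and 1.08% did, the latter close to the members' share. The ratio between inputs has no replicate check.

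The split between the inputs followed GC content. The Spearman correlation of the input ratio with the GC content of the longest transcript was -0.71 over the 182 members and -0.61 over the 9283 coding genes with the same count minimum, against -0.13 for the RIP ratio over the members. All genes in such a correlation share 2 libraries. The 61 Zfp transcripts of lowest GC content (35.9% to 44.6%) had a median log2 ratio of input 2 to input 1 of 1.36, the middle 60 of 0.27 and the 61 highest (51.9% to 65.0%) of -0.43. Zfp445, which helps keep imprints, shows this in 1 gene, with input counts of 80 and 469 and RIP counts of 208 and 150. Its log2 fold change of -0.15 (SE 0.67; edgeR adjusted p = 0.904) turned to 0.15 with scaling by library size alone and to 1.59 without input replicate 2. Which input is nearer to the retina's own levels was not tested.

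**Figure D3:**
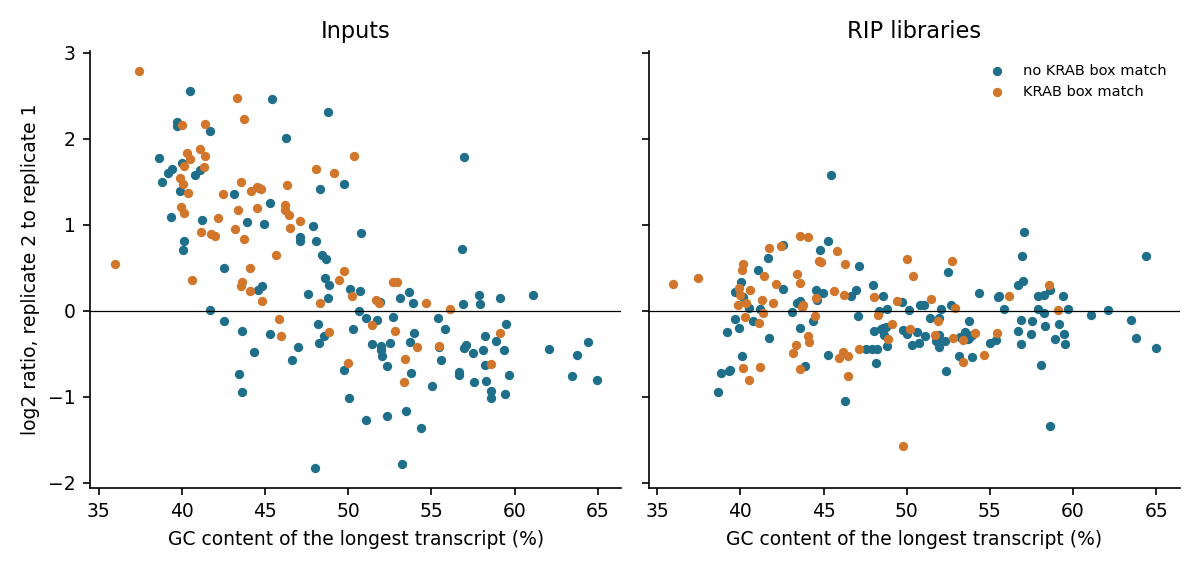
Log2 ratio of replicate 2 to replicate 1 on the y axis against GC content of the longest transcript in percent, for the 182 Zfp transcripts; inputs on the left, RIP libraries on the right, orange points with a KRAB box match. The input ratio falls with GC content (Spearman -0.71), and the RIP ratio stays near 0 (Spearman -0.13).

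The ratio of Zfp transcripts depended on which input it was taken against. Against input replicate 1 the median log2 ratio of the members was 0.58 for RIP replicate 1 and 0.53 for RIP replicate 2, with medians of -0.01 and -0.02 over all genes tested. Against input replicate 2 it was 0.15 and 0.19, with -0.03 and -0.02 over all genes. A ratio of at least 1 was reached by 57 and 51 members against input replicate 1 (backgrounds 18.7% and 18.4%) and by 34 and 25 against input replicate 2 (backgrounds 15.2% and 14.9%). In 11 members all 4 ratios were at least 1, with a background of 4.83%, and in 4 all were at -1 or lower, with a background of 12.3%. The 4 ratios share libraries and are set side by side only as values.

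In the 61 transcripts of lowest GC content the direction itself turned with the input. Their median log2 ratio was 0.68 and 0.67 for RIP replicates 1 and 2 against input replicate 1, and -0.53 and -0.47 against input replicate 2. In the middle 60 it was 0.81 and 0.72 against input replicate 1 and 0.65 and 0.42 against input replicate 2, and in the 61 of highest GC content 0.28 and 0.18, then 0.67 and 0.53. At low GC content 0 of the 61 members were enriched at the adjusted threshold, 5 of the middle 60 were, and 3 of the 61 at high GC content; of coding genes in the same ranges 2.36%, 5.13% and 5.13% were. Coding genes of the same GC range and count minimum had medians of 0.51 and 0.51 against input replicate 1 and -0.36 and -0.35 against input replicate 2 at low GC. Other coding genes of low GC content thus showed the same turn in direction.

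**Figure D4:**
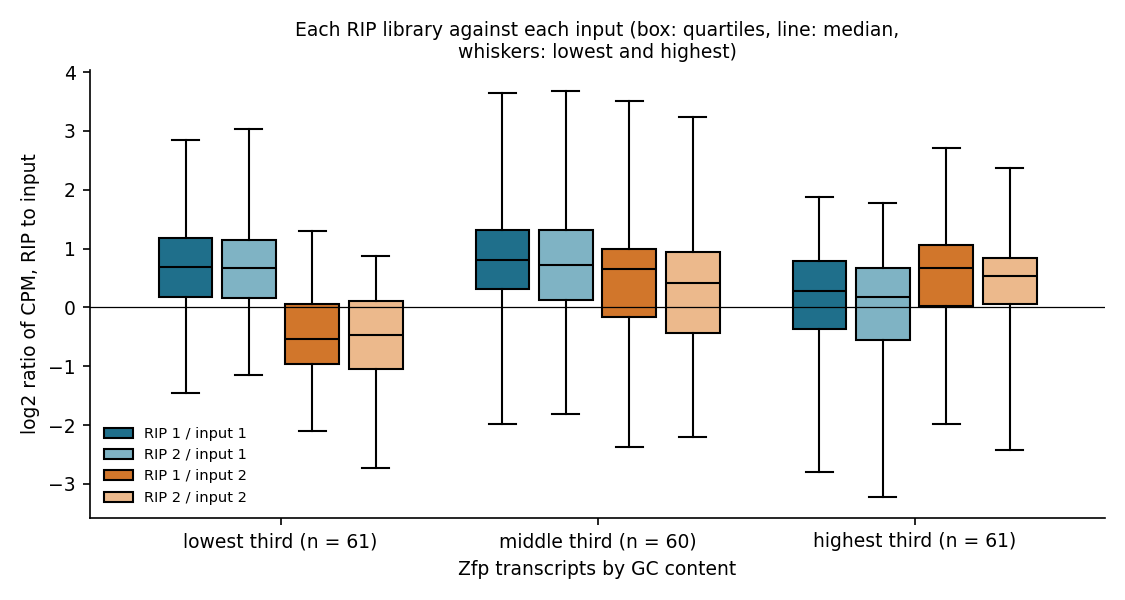
Log2 ratio of CPM of each RIP library to each input for Zfp transcripts in 3 groups by GC content (n = 61, 60 and 61); boxes give quartiles, lines medians, whiskers the lowest and highest values. At low GC content the medians are 0.68 and 0.67 against input replicate 1 but -0.53 and -0.47 against input replicate 2.

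Members with and without a KRAB box both had medians above that of all genes tested. The 68 with a KRAB box had a median log2 fold change of 0.32, with 3 enriched (4.41%) and 1 depleted (1.47%). The 114 without a match had 0.21, with 5 enriched (4.39%) and 3 depleted (2.63%). Over all genes tested 3.48% were enriched and 9.78% depleted. The enriched shares of the 2 groups were close to each other and to that background. KRAB members had the lower GC content (median 44.6% against 50.7%) and the larger split between inputs, with a median log2 ratio of 0.93 against -0.09. Against input replicate 1 their median ratio was 0.79 and 0.85 for the RIP replicates, and against input replicate 2 it was 0.02 and 0.08. For members without a match it was 0.43 and 0.26, then 0.34 and 0.31. Which group stood higher thus turned with the input. By number of fingers, the median log2 fold change was 0.08 in 37 members with 0 to 4, 0.28 in 95 with 5 to 12 and 0.38 in 49 with 13 or more. This order also turned with the input. For RIP replicates 1 and 2 against input replicate 1, the medians were 0.29 and -0.06, 0.60 and 0.60, and 0.75 and 0.58. With input replicate 2 they fell with finger number, at 0.28 and 0.29, 0.13 and 0.19, and 0.05 and 0.10.

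Zfp transcripts had a median length of 4197 bases and a median longest exon of 3266 bases, against 3766 and 2036 bases for coding genes of the same count minimum. Across those coding genes the log2 fold change had a Spearman correlation of 0.46 with transcript length, and across the 182 members 0.22. GGACT, one of the letter strings of the m6A motif, was searched on the transcript strand only. It was in 96.7% of the members' longest transcripts and in 94.7% of those of the coding genes, at a median of 0.95 and 1.03 per kb, and its density had a Spearman correlation of 0.01 with the log2 fold change over the members.

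By gene position, 46 members lay on chromosome 7, 23 of them with a KRAB box, and 16 each on chromosomes 6 and 8. The cluster on chr7:24081924-24515682 held 7 members, Zfp180, Zfp112, Zfp111, Zfp93, Zfp61, Zfp94 and Zfp428. All 7 were above 0 in log2 fold change, between 0.13 and 1.02, and none of them passed the adjusted threshold. Of these, Zfp93 shared 20.7% of its 50-base stretches with other genes, so its value is uncertain. A second cluster on chr7:29768552-30169750, of 8 members, had a median of 0.63 but also a median log2 ratio between inputs of 1.39. The 8 members on chr6:47819266-48086593 had a median of 0.79 with a median ratio between inputs of 0.05. Not every cluster lay above 0. The 4 members on chr7:4915217-5053723, which hold Zfp580, had a median of -0.53 with 1 of 4 above 0, and the 5 on chr7:12804977-12985714 a median of 0.02. The other 2 clusters, of 5 members on chr7:127233061-127615797 and 4 on chr9:20428449-20605409, had medians of 0.61 and 0.35. In them 4 and 2 members were above 0, and the median log2 ratios between inputs were -0.64 and 1.31. Zfp747, in the former, shared 36.9% of its 50-base stretches with other genes.

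By role, the neural and retinal list had 11 of its 12 genes among the members, with a median log2 fold change of 0.38. In it 1 member (9.09%) was enriched and 0 were depleted, with 3.48% and 9.78% of all genes tested. The role lists are too short to set such counts apart from those backgrounds. Zfp365 was the enriched one. The 12th gene, Zfp703, was left out by its RIP counts: it had input counts of 171 and 101 and RIP counts of 12 and 49, a log2 fold change of -1.68 (SE 0.65; edgeR adjusted p = 0.123, and 0.0112 with the replicate number as a block). The median of the 11 leaves out its value. Zfp521, a driver of early neural fate, had input counts of 197 and 241 and RIP counts of 366 and 350, a log2 fold change of 1.17 (SE 0.34; edgeR adjusted p = 0.0541), and its groups did not overlap in CPM. Among these members the lowest was Zfp292 at -0.78, with input counts of 72 and 448 and RIP counts of 111 and 108. Zfp644, linked to retinal development and myopia, was at -0.09 (0.22 with scaling by library size alone), with 154 and 485 against 241 and 193. In both Zfp292 and Zfp644 the RIP libraries lay between the inputs, and without input replicate 2 their log2 fold changes were 1.04 and 0.93.

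Of the KRAB proteins known for imprints and retroelements, 3 of 6 were members and none passed (backgrounds 3.48% enriched and 9.78% depleted). Zfp568, a repressor of a placental Igf2 transcript, had input counts of 75 and 161 and RIP counts of 235 and 164 (1.22, SE 0.45; edgeR adjusted p = 0.114). Zfp57, which binds methylated imprint control regions, had 81 and 78 against 24 and 38 (-0.89, SE 0.47; edgeR adjusted p = 0.245). These 2 stood on opposite sides of 0, with Zfp445 in between. The other 3 genes of the list missed the count minimum. Zfp932 had input counts of 23 and 98 and RIP counts of 17 and 20 (-1.23; edgeR adjusted p = 0.285), Zfp809 had 7 and 50 against 11 and 21 (-0.35; edgeR adjusted p = 0.835), and Zfp708, not tested, had 11 and 21 against 0 and 0. Without input replicate 2, Zfp932 was at 0.12 and Zfp809 at 1.62, and Zfp809 was also above 0, at 0.10, on log2(FPKM + 0.1).

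Among 10 Zfp genes for RNA, translation and ubiquitin or SUMO pathways, 0 were enriched and 1 (10%), Zfp830, was depleted. Their median was -0.38, and the backgrounds over all genes tested were 3.48% enriched and 9.78% depleted. Zfp451, a SUMO ligase, was highest, with input counts of 196 and 631 and RIP counts of 509 and 674 (0.99, SE 0.52; edgeR adjusted p = 0.240), followed by the RNA-binding protein gene Zfp106 at 0.69. Among 11 of 12 general transcription factors, 0 were enriched and 1 (9.09%), Zfp384, was depleted, with a median of 0.29. The 12th, Zfp143, missed the count minimum in RIP replicate 2, with input counts of 71 and 172 and RIP counts of 37 and 19 (-1.66, SE 0.56; edgeR adjusted p = 0.0870). Zfp217, a factor amplified in breast cancer, had input counts of 78 and 74 and RIP counts of 151 and 112 (1.24, SE 0.39; edgeR adjusted p = 0.0694). Zfp219, a partner of SOX9, was at 0.997 and Zfp639 at -0.30. For the KRAB corepressor machinery, of 19 transcripts measured 0 were enriched and 1 (5.26%) was depleted, with a median of -0.07. The backgrounds were again 3.48% and 9.78%, and the list is too short to set such counts apart from them. The depleted one was Hdac2, a histone deacetylase, with input counts of 268 and 448 and RIP counts of 64 and 102 (-1.64, SE 0.43; edgeR adjusted p = 0.0405). Hdac2 no longer passed with TMM factors from genes other than small, ribosomal and mitochondrial RNA (adjusted p = 0.0631), library size alone (0.0782), no filter on low counts (0.0989), log2(FPKM + 0.1) (0.114) or log2(FPKM + 1) (0.0958). Trim28, the scaffold that KRAB boxes bind, was at 0.54 (SE 0.35; edgeR adjusted p = 0.342), and Atf7ip, a partner of the methyltransferase SETDB1, at 0.65. Mphosph8 of the HUSH complex had input counts of 41 and 153 and RIP counts of 16 and 0. Its log2 fold change of -3.13 (SE 1.09; edgeR adjusted p = 0.0957) rests on a library with no count. With 1 library left out it ranged from -9.47 without RIP replicate 1, where the RIP count left is 0 and the value is no bound, to -1.93 without input replicate 2, and the adjusted p was 0.433 with DESeq2 and 0.000458 with the replicate number as a block.

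**Figure D5:**
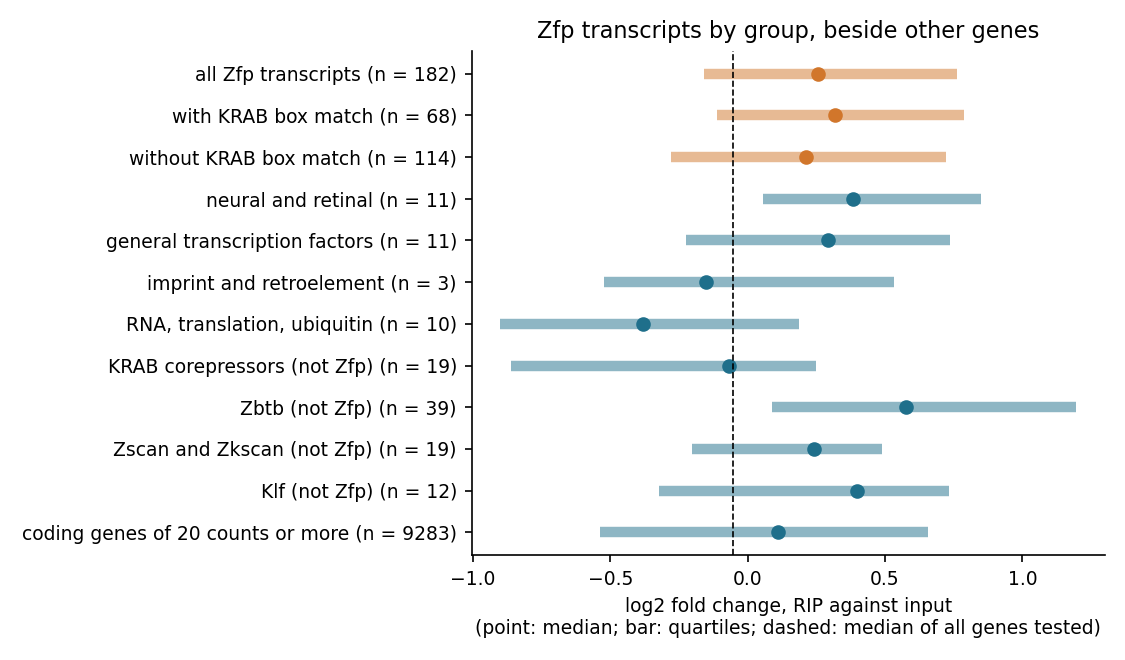
Median (point) and quartiles (bar) of the log2 fold change of RIP against input for Zfp transcripts, their KRAB and role groups, and groups of other genes, with n in brackets; the dashed line is the median of all genes tested (-0.05). The Zfp median is 0.25, and the RNA, translation and ubiquitin list is lowest at -0.38.

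Other finger families are set beside them, with the same backgrounds of 3.48% enriched and 9.78% depleted. These families hold all their tested genes, without the 20-count minimum that the members had to meet. The 23 tested Zfp genes whose number is followed by a letter had a median of -0.16 with 0 enriched and 0 depleted, and 39.1% were above 0. The 39 tested Zbtb genes, whose proteins join C2H2 fingers to a BTB domain, had a median of 0.58 with 6 enriched and 0 depleted. The 19 Zscan and Zkscan genes had a median of 0.24 with 0 and 0, and the 12 Klf genes a median of 0.40 with 2 and 1. None of these differences from the Zfp transcripts was tested. The 100 Zfp genes that passed the filter on low counts but not the 20-count minimum had a median of -0.19, with 2 enriched and 1 depleted. Over all 282 tested Zfp genes, the set without that minimum, the median was 0.15, with 10 enriched and 5 depleted.

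Levels of Zfp transcripts in the inputs were low. The median of the members' mean input CPM was 3.98, against 4.92 for coding genes of the same count minimum. On the length-scaled FPKM scale the highest input mean among members was that of Zfp362, at 11.8 and 7.47 in inputs and 8.88 and 6.10 in the RIP. Zfp580 came next, with 8.33 and 5.34 FPKM in inputs and 1.72 and 0.933 in the RIP, and then Zfp422, with 5.47 and 5.25 against 11.9 and 7.73. These 3 show no common direction: Zfp580 was depleted, both RIP values of Zfp422 lay above both of its inputs, and those of Zfp362 overlapped them.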

How the data were processed

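RNA from P0 retina of wild type mice was sequenced before (input) and after anti-YTHDF2 pulldown (RIP), with 2 biological replicates of each. The authors deposited counts per gene, as whole numbers, and FPKM values, which the authors scaled by gene length and library size. Submitters' processing notes name STAR 2.5, HTSeq and GRCm38; annotation, strand setting and treatment of multiply mapped reads are not given in the sources used here. All sample columns of both tables entered the work, and 0 were set aside. Gene features came from GENCODE M21 (GRCm38), with the longest transcript standing for each gene.

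The main test was edgeR 4.0.16 under R 4.3.3 (filterByExpr with minimum count 10 and minimum total 15, TMM, glmQLFit, glmQLFTest, Benjamini-Hochberg adjustment over all 13632 genes tested). Log2 CPM used a prior count of 2. Groups and replicate numbers came from the labels. The series' design text gives each replicate an input and a pulldown, which ties samples of equal number together. The input difference and that between RIP libraries, replicate 2 minus replicate 1, had a Pearson r of -0.03 over all genes tested and 0.16 over the members. The block on the number was run as an alternative. A KRAB box was called where at least 8 of 10 usual residues stood at their places in the first 300 residues, and its positions were chosen on sequences alone. Fits were run on simulated counts with the same spread for inputs and RIP libraries and no effect of GC content or length. The split between the inputs was thus not simulated.

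Genes named were the 10 members with the highest and the 10 with the lowest log2 fold change, and from each list (roles, corepressors) the 2 highest, the 2 lowest and those called, with the Zfp genes of those lists that missed the count minimum. Zfp142, the genes at the count limit, the members of clusters and those of highest FPKM were named for those properties. Members and lists were chosen with earlier results of these data known. Alternatives were DESeq2 1.42.0, other scaling, other filters, the block, limma 3.58.1 on log2(FPKM + 0.1) and log2(FPKM + 1), a trend on length and GC content (mgcv 1.9.3), wider choices of members, and each library left out in turn, where the lone library of a group was assumed to vary like those of the other.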

Additional observations from a re-analysis of the deposited data

How the results depend on the processing

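Counts of members called are given as enriched and depleted, with the shares of all genes tested in brackets. At the adjusted threshold 8 and 4 (3.48% and 9.78%) became 15 and 4 with DESeq2 (5.36% and 11.2%), 15 and 2 with library size alone (6.2% and 7.32%), 5 and 2 with log2(FPKM + 0.1) (2.48% and 8.08%), 11 and 2 with log2(FPKM + 1) (3.98% and 8.02%), 5 and 2 with no filter on low counts (1.25% and 3.81%), 5 and 12 with the length and GC trend taken out (4.16% and 10.3%) and 6 and 8 with trend and block (3.08% and 8.11%). At the looser limits 24 and 8 (9.43% and 17.2%) became 45 and 5 with library size alone (17.3% and 12.7%), 31 and 4 with log2(FPKM + 0.1) (12.4% and 14.9%), 11 and 2 with log2(FPKM + 1) (2.62% and 7.16%), 9 and 13 with the trend taken out (6.4% and 14.9%) and 11 and 14 with trend and block (6.43% and 14.2%). Wider sets hold Zfp genes other than the members. Of all 282 Zfp genes past the filter, 29 (10.3%) were enriched and 16 (5.67%) depleted at the looser limits, with 9.43% and 17.2% of all genes tested. Over the 245 Zfp genes with a mean of at least 20 counts, 14 were depleted at those limits, against 17.2% of all genes tested. With 1 library left out, enriched members ranged from 0 to 61 and depleted from 0 to 27, and at the looser limits from 7 to 49 and from 2 to 23.

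The median of Zfp transcripts stayed above that of all genes tested under each alternative run, by 0.31 in the main analysis. The excess was 0.14 with the trend taken out, with or without the block, where the members' own median was below 0 (-0.02 and -0.01). It was 0.17 with log2(FPKM + 1) and with at least 20 counts required of all genes, 0.20 over all Zfp genes past the filter, 0.49 with no filter, and 0.18 to 0.60 with 1 library left out, the latter without input replicate 2. The cause of these changes was not tested.

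With the replicate number as a block, 12 and 5 members were called at the adjusted threshold (5.29% and 11.8% of all genes tested) and 29 and 7 at the looser limits (10.9% and 16.9%). Of the 41 genes covered, the call changed with the block in Zfp740, Zfp871, Zfp704, Zfp317, Zfp790, Zfp1, Zfp143 (edgeR adjusted p = 0.0346), Zfp703 and Mphosph8, and in no other. Signs turned as follows. Zfp445 was at 0.15 when scaled by library size alone, at 0.44 and 0.12 for log2(FPKM + 0.1) and log2(FPKM + 1), and at 0.30 with the block; Zfp644 was at 0.22, 0.28, 0.080 and 0.11 in that order. With the trend taken out Atf7ip was at -0.11, Zfp106 at -0.041 and Zfp809 at 0.26, and with trend and block at -0.11, -0.035 and 0.59. Zfp809 was at 0.10 for log2(FPKM + 0.1) and 0.039 with the block. With 1 library left out, log2 fold changes ranged in Zfp292 from -1.55 to 1.04, in Zfp326 from -1.59 to 0.21, in Zfp445 from -0.92 to 1.59, in Zfp644 from -0.68 to 0.93, in Zfp81 from -1.93 to 0.94, in Zfp809 from -1.15 to 1.62 and in Zfp932 from -1.92 to 0.12. Of 405 values of these genes under alternatives that kept all libraries, 327 kept direction and side of the threshold, 34 fell short of it, 28 newly passed and 16 turned sign.

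The lowest count of a member in a library was 20, and the median member had 97 to 153 counts, which limits what the lower members can show.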
